A study of Homo sapiens with 18 samples.

Results

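Integrins, laminins and their companion matrix receptors were followed as a list of 31 named genes in T47D cells, a luminal breast cancer line that expresses the estrogen receptor. The list was 9 integrin alpha subunits, 8 integrin beta subunits, 7 laminin chains, 6 other matrix receptors or their partners (CD44, CD151, DAG1, DDR1, SDC1 and SDC4) and fibronectin (FN1). The members were chosen by name and all 31 were found among the 58884 genes counted. RNA was sequenced from WT cells (cell line T47D AAV) and PARP1 KO cells (cell line T47D JL) after 48 hours with DMSO, niraparib at 10 μmol/L or olaparib at 10 μmol/L, with 3 libraries in each of the 6 groups and 18 in all. Niraparib and olaparib both inhibit PARP1, an enzyme that senses DNA breaks, and the comparisons ask how each drug changed the matrix receptors and whether the response differed between the genotypes. The PARP1 KO arm is 1 knockout line. Since each genotype is a single line, loss of PARP1 and any other difference between the lines cannot be told apart. The methods describe 3 dishes per condition for the drug treatments, and the labels do not tie each library to a dish, so that p-values measure the spread between these libraries, part of which may be technical.

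Integrins are pairs of 1 alpha and 1 beta chain that span the cell membrane and tie the matrix outside to the actin or keratin skeleton inside, and the pairing decides which matrix protein is bound. Laminins are cross-shaped trimers of an alpha, a beta and a gamma chain that form the sheet of the basement membrane under epithelia. Luminal breast cells hold to this sheet mainly through laminin-binding integrins, dystroglycan, syndecans and discoidin domain receptors.

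Total counts ran from 28890837 to 52251288 per library, and the 31 genes together took 0.359% to 0.465% of them. PARP1 itself was at 313 to 368 CPM (counts scaled to library size) in the 9 WT libraries and at 22.9 to 27.1 CPM in the 9 PARP1 KO libraries. The luminal markers were present in every library, ESR1 at 112 to 176 CPM and FOXA1 at 273 to 410 CPM. Of the markers of other cell types, KRT5, KRT14, PECAM1, PTPRC and PDGFRA stayed at or below 0.185 CPM, whereas COL1A1 (88.3 to 153 CPM), ACTA2 (35.8 to 49.2 CPM) and TP63 (1.24 to 2.54 CPM) were detected in all 18 libraries. Because these are bulk libraries, fewer cells of a kind and less RNA per cell cannot be told apart. A few libraries stood apart from the others of their group in counts over all genes. The chi-square per gene was 17.5 or more for the first WT DMSO library against each of the others and 3.28 between those, 12.2 and 16.8 for the second WT niraparib library against 3.41, and 11.7 and 14.7 for the third PARP1 KO niraparib library against 3.13. Between the PARP1 KO olaparib libraries it was 8.21 to 18.3. With 3 libraries against 3 an exact permutation test of a single gene cannot go below p = 0.1, so the tests given are from edgeR fits across all genes (quasi-likelihood test, Benjamini-Hochberg adjustment). A gene is said to have risen or fallen at an adjusted p below 0.05, and to be called when it also changed by more than 1.5-fold.

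The promoter windows of 3 members are shown because they are the members called lower in WT cells, ITGA10 and LAMA5 with niraparib against DMSO and SDC4 with niraparib against olaparib. Each window runs from 250 bases before to 50 bases after the gene start and is written 5′ to 3′ on the gene's own strand, from RefSeq (GRCh38.p14). Capitals mark matches, on either strand, to the GC box GGGCGG and the CCAAT box CCAAT. The AP-1 site TGANTCA and the E-box CACGTG were also searched and were not found in these 3 windows, and a match to letters is not shown to be a site.

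ITGA10, chr1:145910001-145910300, minus strand: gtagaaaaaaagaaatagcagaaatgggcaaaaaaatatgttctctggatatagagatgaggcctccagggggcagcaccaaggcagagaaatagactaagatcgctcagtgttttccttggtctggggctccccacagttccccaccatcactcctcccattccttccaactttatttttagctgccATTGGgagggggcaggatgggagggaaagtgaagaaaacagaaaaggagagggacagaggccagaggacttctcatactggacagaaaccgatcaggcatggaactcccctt

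LAMA5, chr20:62367263-62367562, minus strand: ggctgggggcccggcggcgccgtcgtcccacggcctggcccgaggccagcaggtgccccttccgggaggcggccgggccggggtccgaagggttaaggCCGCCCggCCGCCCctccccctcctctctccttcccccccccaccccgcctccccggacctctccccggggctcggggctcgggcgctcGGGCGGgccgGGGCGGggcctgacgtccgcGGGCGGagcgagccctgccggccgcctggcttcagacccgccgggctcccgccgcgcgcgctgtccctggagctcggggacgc

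SDC4, chr20:45348375-45348674, minus strand: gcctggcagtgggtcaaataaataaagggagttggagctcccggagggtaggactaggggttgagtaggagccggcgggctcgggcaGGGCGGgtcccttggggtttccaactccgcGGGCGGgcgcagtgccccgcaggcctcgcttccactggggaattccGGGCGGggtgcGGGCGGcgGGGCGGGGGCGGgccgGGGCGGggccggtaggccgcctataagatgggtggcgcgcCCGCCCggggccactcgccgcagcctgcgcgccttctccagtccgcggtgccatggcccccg

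The 3 windows share no searched motif. The ITGA10 window had a GC content of 48.7%, no GC box and 1 CCAAT box, the LAMA5 window 82.7% and 5 GC boxes, and the SDC4 window 74.0% and 8 GC boxes. A window was matched for 25 of the 31 members, and 17 of these 25 held a GC box against 45.0% of the 35116 windows of all genes. A CCAAT box was found in 5 of the 25 and in 34.6% of all windows, an AP-1 site in 2 and in 7.71%, and an E-box in 1 and in 7.26%.

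Levels were compared between genes as CPM per kilobase of exon. Over the 18 libraries 27 of the 31 members averaged at least 1 CPM and 4 did not (ITGA1, ITGB3, ITGB7 and LAMA4). In WT cells with DMSO, SDC4, a heparan sulfate proteoglycan that acts with integrins at adhesion sites, was the highest member at 102 ± 5.2 CPM per kilobase (SD, n = 3). It was followed by the collagen receptor DDR1 (70.5 ± 0.694), by DAG1, the gene of dystroglycan (68.0 ± 2.2), and by LAMB2, the highest laminin chain (64.8 ± 0.762). DDR1 and DAG1 did not differ beyond their spread, and LAMA5 (55.5 ± 15.4) lay within 1 SD of its neighbours LAMB2 and ITGB1. Among integrin subunits ITGB1, the beta chain shared by most matrix-binding integrins, was highest at 42.1 ± 1.9, and ITGAV, the alpha chain of the fibronectin- and vitronectin-binding integrins, led the alpha subunits at 18.1 ± 0.25. The subunits ITGB5 (30.1 ± 0.334) and ITGB4 (28.8 ± 0.314) lay close together, ITGB4 being the chain that joins ITGA6 in hemidesmosomes.

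**Figure D1:**
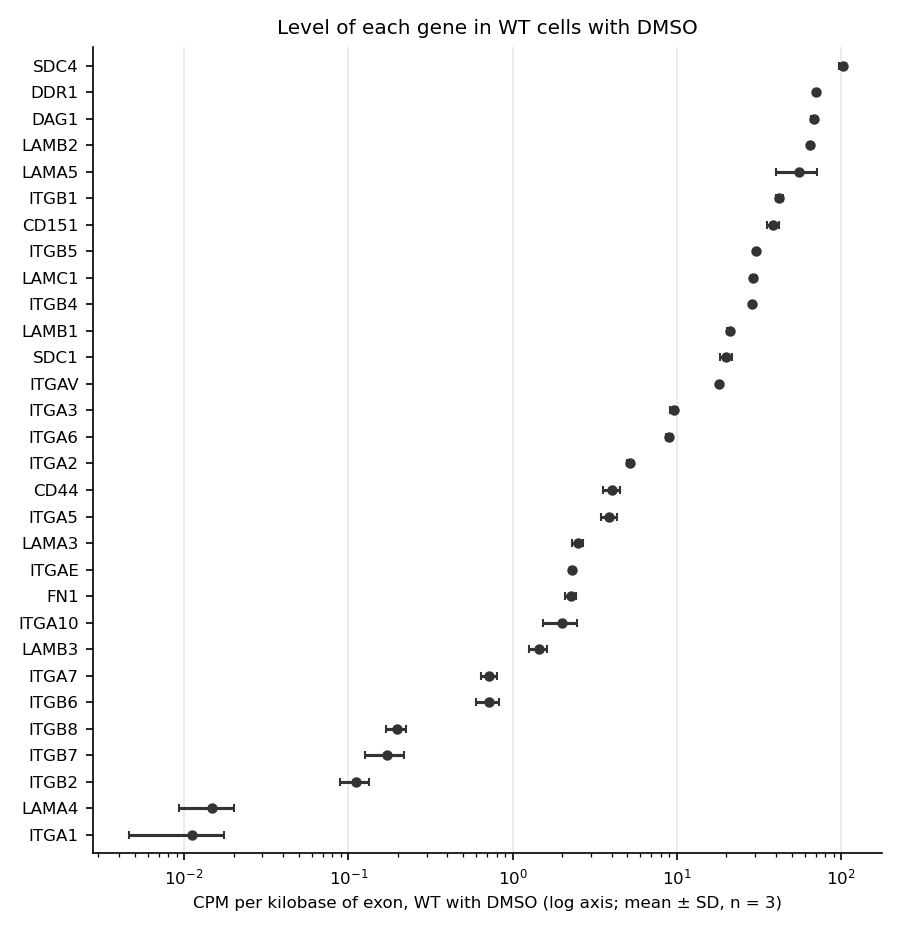
Level of each member in WT cells with DMSO in CPM per kilobase of exon on a log axis, as the mean (points) with its SD (bars, n = 3 libraries). SDC4 stands at the top at 102 CPM per kilobase, LAMA4 and ITGA1 are below 0.02, and ITGB3 is not drawn because no count was seen in these 3 libraries.

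The lowest members were near the limit of detection. ITGB3, the platelet integrin beta chain, had no counts in the 3 WT DMSO libraries and at most 5 in any library, and it was tested only in the fit of all 18 libraries. A share of 51.6% of its exon bases overlaps another gene on the same strand, where reads were not counted, and the share was 16.7% for ITGB6 and 5.8% for ITGA1. ITGA1 had 3 to 21 counts per WT library, and LAMA4 had 4 to 25.

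In WT cells, niraparib lowered more of the matrix receptors and laminins than it raised. Of the 30 members tested, 15 fell and 8 rose at an adjusted p below 0.05, where 18.1% of all 22446 genes tested fell and 19.9% rose. Among the 13526 genes at 1 CPM or more, the range in which 27 members lie, 27.4% fell and 29.1% rose. The median log2 fold change of the 30 members was -0.18, against -0.03 over all genes. Most of these changes were small: 2 members were called lower (ITGA10 and LAMA5) against 5.72% of all genes, and 1 was called higher (ITGB2) against 8.1%. With each library left out in turn, 13 of the 15 that fell kept an adjusted p below 0.05 in all 6 fits (all but ITGB4 and LAMA5), as did 2 of the 8 that rose (ITGA5 and FN1). Without the first DMSO library 15 fell and 6 rose, and without the second niraparib library 14 fell and 8 rose. The luminal markers moved in the same libraries: 7 of 9 fell with niraparib in WT cells, and their summed level was 9463 to 10472 CPM against 13009 to 13630 CPM with DMSO. Of the basal or myoepithelial markers 3 of 5 were tested and 2 rose, and the summed level of the list was 48.6 to 51.8 CPM against 42.2 to 44 CPM with DMSO. The part of these markers in the results on the members was not tested.

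**Figure D2:**
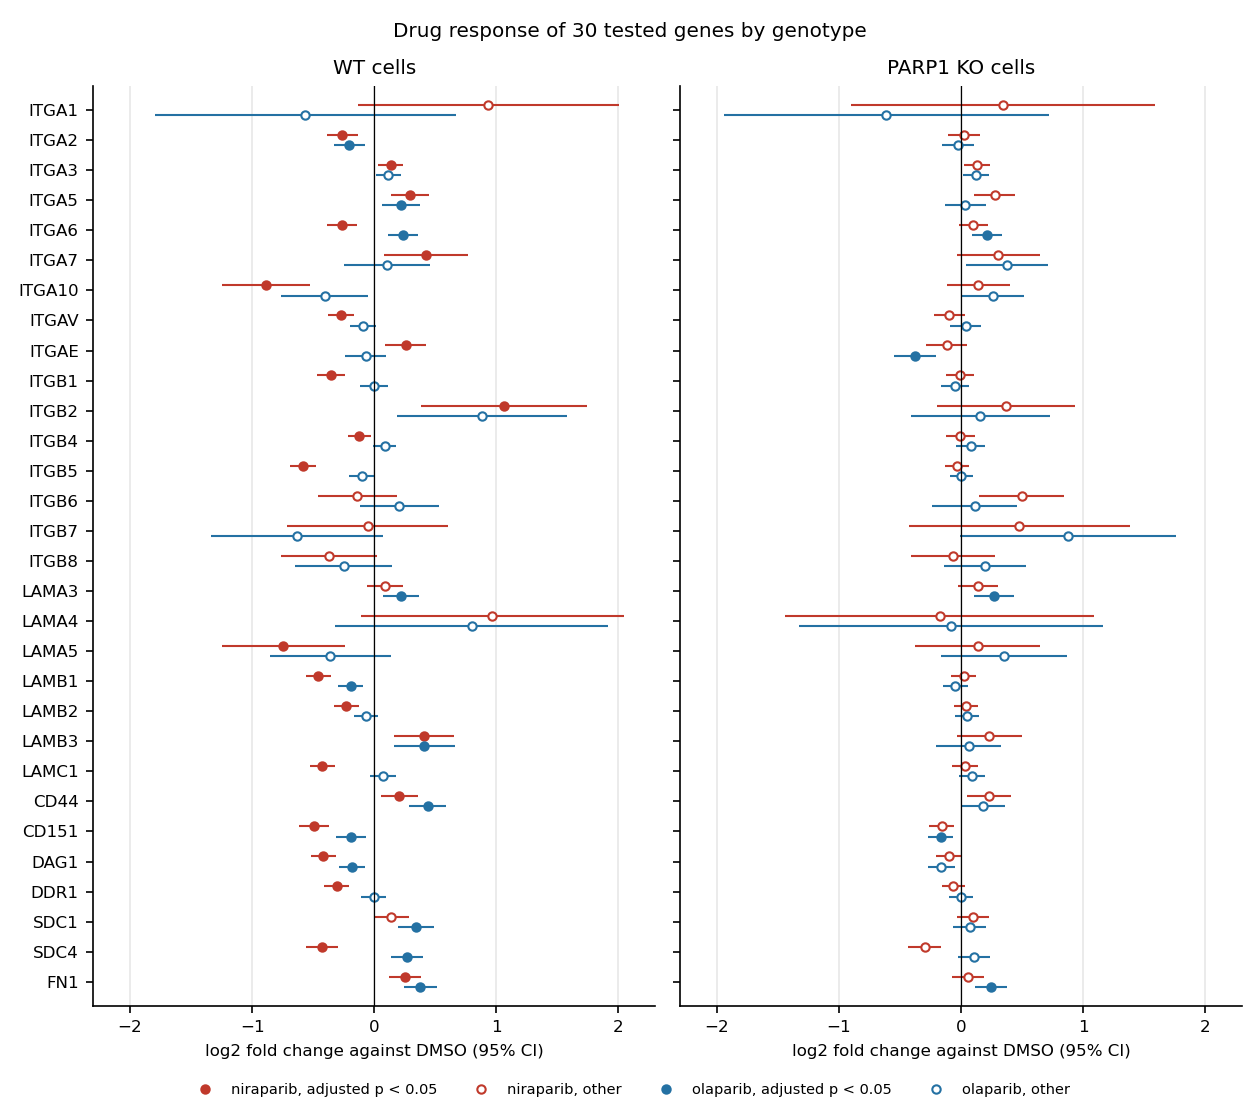
Log2 fold change against DMSO with its 95% confidence interval for the 30 members tested, in WT cells (left) and PARP1 KO cells (right), for niraparib (red) and olaparib (blue), with filled points at an adjusted p below 0.05. The red filled points lie left of zero for 15 members in WT cells, and no red point is filled in PARP1 KO cells.

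Among the alpha subunits 4 fell and 4 rose. ITGA10, the alpha chain of a collagen-binding integrin known from cartilage, had the largest change of the alpha subunits past the adjusted p. Its level was 15.8, 10.6 and 10.9 CPM with DMSO and 5.86, 8.18 and 5.82 CPM with niraparib. The groups did not overlap, and the first DMSO library stood above the other two. The log2 fold change was -0.89 ± 0.17 (SE, adjusted p = 0.000743), and without that DMSO library it was -0.69 (adjusted p = 7.82e-05).

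The other 3 alpha subunits that fell are the laminin and collagen receptors ITGA6 and ITGA2 and the αV chain ITGAV. ITGA6, which pairs with ITGB1 or ITGB4 to bind laminin, went from 57.3, 61.8 and 60.8 CPM to 53.9, 45.5 and 50.8 CPM (log2 fold change -0.26 ± 0.06, adjusted p = 0.00109). ITGAV went from 147, 149 and 151 CPM to 122, 114 and 134 CPM (log2 fold change -0.27 ± 0.05, adjusted p = 0.000174). In both genes every niraparib library was below every DMSO library. ITGA2 fell by 0.26 on the log2 scale. Those that rose were ITGA5, the fibronectin receptor chain (log2 fold change 0.29 ± 0.07, adjusted p = 0.00291), ITGAE, the chain that binds E-cadherin (0.26 ± 0.08, adjusted p = 0.0138), ITGA7 (0.42 ± 0.16, adjusted p = 0.0473) and the laminin receptor chain ITGA3 (0.14 ± 0.05, adjusted p = 0.0301). ITGA7 overlapped with DMSO, and without the second niraparib library its change was 0.14 with an adjusted p of 0.49. The adjusted p of ITGA7 was 0.13 and 0.153 without the second or the third DMSO library, that of ITGA3 was 0.112, 0.0528 and 0.132 without the first or the third niraparib library or the first DMSO library, and that of ITGAE was 0.0625 and 0.0535 without the first niraparib or the third DMSO library.

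Of the 7 beta subunits tested, 3 fell and 1 rose. ITGB5, which pairs with ITGAV, had 194, 198 and 197 CPM with DMSO and 136, 121 and 136 CPM with niraparib. That is a log2 fold change of -0.58 ± 0.05 (adjusted p = 5.71e-09), just inside the 1.5-fold limit. ITGB1 went from 241, 264 and 254 CPM to 207, 180 and 207 CPM (log2 fold change -0.36 ± 0.06, adjusted p = 1.70e-05). For both chains the niraparib libraries all lay below the DMSO libraries. ITGB4 fell by 0.12 on the log2 scale (adjusted p = 0.0391), and 4 of the 6 fits that left out 1 library (the second or the third library of niraparib or of DMSO) put the adjusted p at 0.0541 to 0.105. ITGB2, the leukocyte integrin beta chain, was low at 0.6, 0.892 and 0.798 CPM with DMSO and rose to 2.05, 1.08 and 1.83 CPM (log2 fold change 1.07 ± 0.33, adjusted p = 0.0129). These values rest on 18 to 74 counts per library, and without the first niraparib library the change was 0.88 with an adjusted p of 0.0687.

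**Figure D3:**
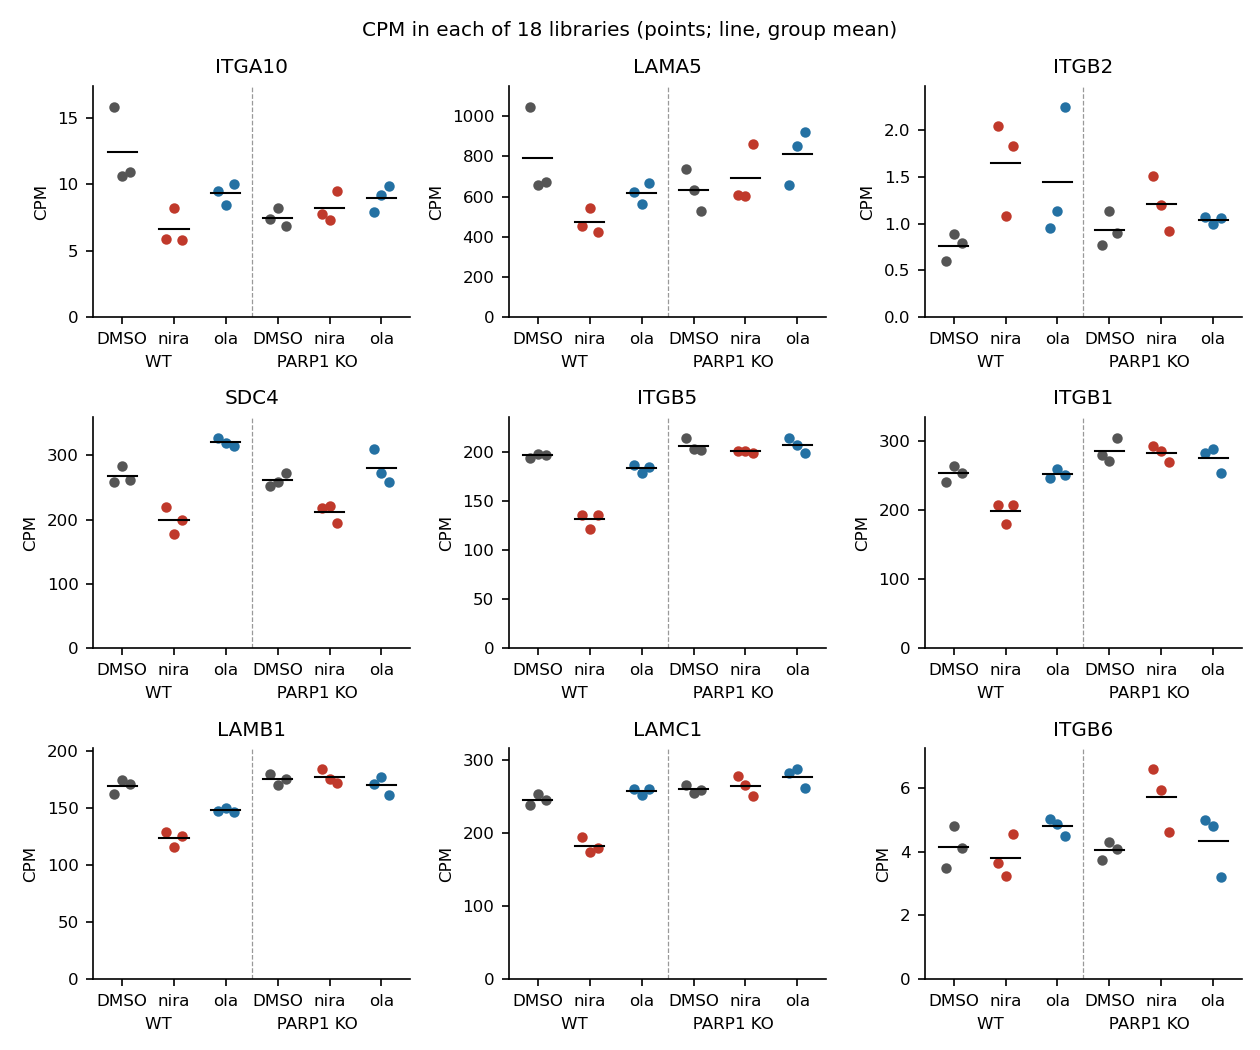
CPM of 9 members in each of the 18 libraries (points, with the group mean as a line) for DMSO (grey), niraparib (red) and olaparib (blue), WT left and PARP1 KO right of the dashed line; each vertical axis starts at 0. ITGB5 sits at 121 to 136 CPM in the WT niraparib libraries and at 199 to 201 CPM in the PARP1 KO niraparib libraries.

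The laminin chains moved in both directions. LAMA5, LAMB1, LAMB2 and LAMC1, which assemble into the main laminins of the mature epithelial basement membrane, all fell with niraparib. LAMB1 went from 162, 174 and 171 CPM to 129, 116 and 125 CPM (log2 fold change -0.46 ± 0.05, adjusted p = 1.46e-07). LAMC1 went from 238, 254 and 245 CPM to 195, 174 and 180 CPM (-0.42 ± 0.05, adjusted p = 5.46e-07). Both chains were lower in every niraparib library than in any DMSO library. LAMB2 went from 439, 448 and 448 CPM to 391, 362 and 389 CPM (-0.23 ± 0.05, adjusted p = 0.000584). LAMA3 and LAMB3, chains of the anchoring laminin of hemidesmosomes, gave other values: LAMB3 rose (log2 fold change 0.41 ± 0.12, adjusted p = 0.00887) and LAMA3 was at 0.09 ± 0.07 (adjusted p = 0.385). LAMB3 lost the threshold without the first niraparib library (adjusted p = 0.0576) or the second DMSO library (0.0656).

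LAMA5 varied between libraries of the same group. It had 1046, 660 and 672 CPM with DMSO, 454, 543 and 422 CPM with niraparib and 622, 561 and 666 CPM with olaparib. The niraparib libraries were all below the DMSO libraries, of which the first was far above the others. The log2 fold change with niraparib was -0.74 ± 0.21 (adjusted p = 0.0302). Without the first DMSO library it was -0.49 (adjusted p = 0.00905), inside the 1.5-fold limit, so that LAMA5 was no longer called. The adjusted p was 0.0872 without the first and 0.0954 without the third niraparib library. The GC content of LAMA5 transcripts, 65.3%, is above that of 96.8% of genes. In 6 of 6 groups the library highest in LAMA5 was also the highest in the most GC-rich 10% of genes. The lowest libraries matched in 4 of 6. That count takes WT niraparib as no match, where the first and the third library tied in the GC-rich genes (-0.019) and the third was lowest in LAMA5. With the GC trend of each library taken out, the change of LAMA5 was -0.75 (adjusted p = 0.0151). ITGA10 and LAMA5 had the same highest library in 5 of the 6 groups and the same lowest in 6.

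**Figure D4:**
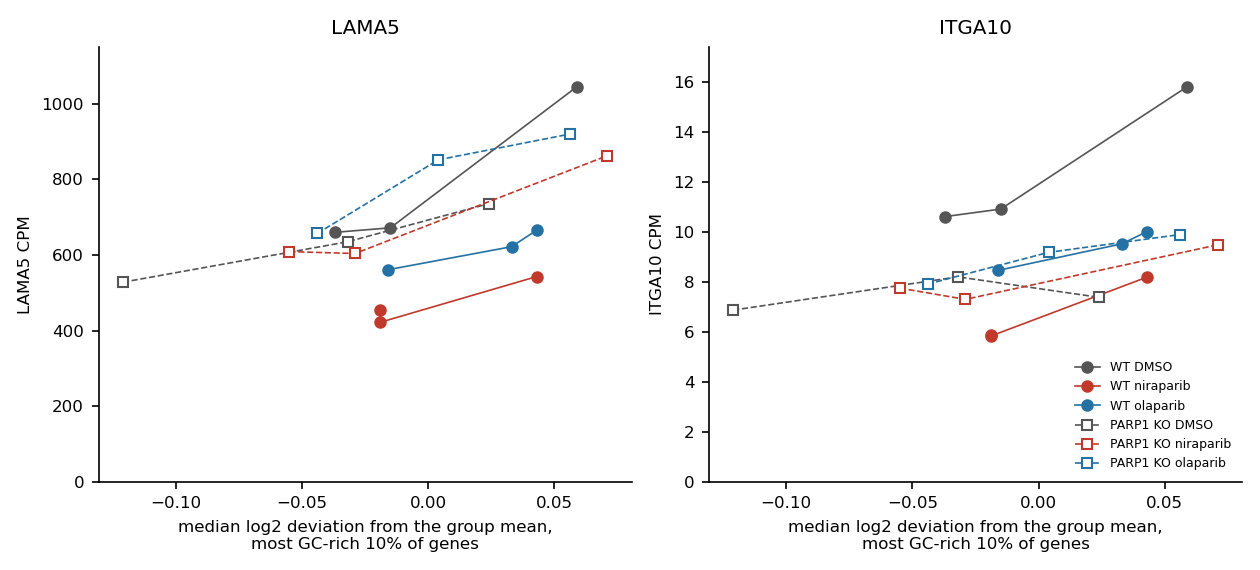
CPM of LAMA5 (left) and ITGA10 (right) in each library against the median log2 deviation of the most GC-rich 10% of genes. The deviation is from the mean of each gene over all 18 libraries, less the median deviation of the library. The axis label names the group mean, which was not used. Libraries of 1 group are joined by a line, WT with filled and PARP1 KO with open points. In all 6 groups the LAMA5 point farthest to the right is also the highest, up to 1046 CPM in WT cells with DMSO.

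Of the other receptors, CD151, DAG1, DDR1 and SDC4 fell with niraparib and CD44 rose. CD151, a tetraspanin that holds laminin-binding integrins in the membrane, went from 135, 157 and 159 CPM to 109, 101 and 111 CPM (log2 fold change -0.49 ± 0.06, adjusted p = 7.79e-07). DAG1 went from 456, 486 and 471 CPM to 361, 331 and 367 CPM (-0.42 ± 0.05, adjusted p = 5.18e-07). DDR1 went from 637, 641 and 650 CPM to 543, 485 and 532 CPM (-0.31 ± 0.05, adjusted p = 3.23e-05). In these 3 genes no niraparib library reached the lowest DMSO library. SDC4 went from 258, 283 and 261 CPM to 219, 178 and 200 CPM (-0.43 ± 0.06, adjusted p = 1.90e-05). The hyaluronan receptor CD44 rose by a log2 fold change of 0.20 ± 0.07 (adjusted p = 0.0322), and the syndecan SDC1 was at 0.14 ± 0.07 (adjusted p = 0.121). CD44 lost the threshold without the first DMSO library (0.11, adjusted p = 0.165) and without the first or the third niraparib library (adjusted p = 0.129 and 0.0947). FN1, the ligand of ITGA5 and of the ITGAV integrins, was at 35.8, 40 and 41.1 CPM with DMSO and at 49.2, 42.5 and 47.9 CPM with niraparib, above every DMSO library (log2 fold change 0.25 ± 0.06, adjusted p = 0.00328).

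Olaparib changed fewer members in WT cells, and more of them upward. No member was called, where 4.04% of all genes were (15 members had an unadjusted p below 0.05, and DESeq2 also called 0). At an adjusted p below 0.05, 8 members rose, against 11.2% of all genes and 18% of those at 1 CPM or more. A further 4 fell, against 7.77% and 11.7%. The median of the 30 members was 0.03 and that of all genes -0.02. Those that rose were CD44, FN1, SDC1, SDC4, ITGA6, LAMB3, ITGA5 and LAMA3, with log2 fold changes from 0.22 to 0.44. CD44 was the largest of these, with 56.4, 55.3 and 52.5 CPM against 34.8, 42.6 and 43.8 CPM with DMSO (0.44 ± 0.07, adjusted p = 0.000255). FN1 reached 50.2, 50.5 and 51.1 CPM (0.38 ± 0.06, adjusted p = 0.000216). In both genes the olaparib libraries all lay above the DMSO libraries. The luminal markers also moved with olaparib in WT cells, where 7 of 9 fell and their summed level was 10359 to 10800 CPM. The basal or myoepithelial markers summed to 48.6 to 50.4 CPM, with 1 of the 3 tested past the threshold, and the part of both lists in these results was not tested. The members that fell were ITGA2, LAMB1, CD151 and DAG1, by 0.18 to 0.21. In the 6 fits that each left out 1 library, 5 of the 12 members kept an adjusted p below 0.05 throughout (CD44, FN1, SDC1, SDC4 and ITGA6). The highest adjusted p was 0.182 for ITGA5 without the first DMSO library, 0.152 for LAMA3 without the third and 0.103 for LAMB3 without the second DMSO library. It was 0.12 for ITGA2 without the first and 0.129 for CD151 without the third olaparib library, and 0.0513 for LAMB1 and 0.0716 for DAG1 without the second DMSO library.

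The direct comparison of the drugs in WT cells, at the same dose and time, showed lower levels with niraparib for 15 members and higher levels for 2 at an adjusted p below 0.05. Over all genes 16.2% were lower and 16.1% higher, and the median was -0.19 for the members and 0.02 for all genes. Of the luminal markers 3 of 9 were lower with niraparib, and 1 basal or myoepithelial and 1 fibroblast marker were called higher. The fibroblast list summed to 113 to 154 CPM against 96.3 to 108 CPM with olaparib. Nearly all of that sum was COL1A1 (112 to 153 CPM against 95.5 to 107 CPM), which changed by less than 1.5-fold. The fibroblast marker called was another, and those others stayed at or below 0.852 CPM in every library. The part of these markers was not tested. SDC4 was called lower, against 3.33% of all genes. It had 219, 178 and 200 CPM with niraparib and 327, 320 and 315 CPM with olaparib, a log2 fold change of -0.69 ± 0.06 (adjusted p = 8.68e-08). SDC4 fell with niraparib and rose with olaparib (0.27 ± 0.06, adjusted p = 0.00522) against DMSO. ITGA6 did the same, with 69.9, 70.5 and 71.7 CPM with olaparib and a difference of -0.50 ± 0.06 between the drugs (adjusted p = 8.45e-07). ITGA2 and LAMA5, which had fallen with niraparib against DMSO in the same niraparib libraries, did not pass the test between the drugs (-0.06 ± 0.06, adjusted p = 0.562, and -0.38 ± 0.21, adjusted p = 0.233). The 95% interval of that difference was -0.18 to 0.07 for ITGA2 and -0.88 to 0.12 for LAMA5. Of the 17 members that differed between the drugs, 12 kept an adjusted p below 0.05 with each library left out, and ITGA10, LAMB2, CD44, SDC1 and ITGA1 did not, with highest adjusted p of 0.14, 0.0903, 0.0792, 0.11 and 0.161.

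ITGA1, the alpha chain of a collagen-binding integrin, was called higher with niraparib than with olaparib, against 5.62% of all genes. Its counts were 14, 21 and 17 with niraparib and 3, 8 and 4 with olaparib, and the groups did not overlap. The log2 fold change was 1.5 ± 0.55 (adjusted p = 0.0419), and 5 of the 6 fits that left out 1 library put the adjusted p above 0.05, at 0.0686 to 0.161. ITGAE was the other member that was higher, with 18.8, 17.2 and 18.3 CPM against 13, 15 and 15.1 CPM (0.33 ± 0.08, adjusted p = 0.00295).

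In PARP1 KO cells no member changed with niraparib by the same test. None was called and none passed the adjusted p by edgeR, where 0.0136% and 0.109% of 22037 genes did, so that the background itself was near 0. An unadjusted p below 0.05 was found for 6 members, and DESeq2 passed 1. The median of the 30 members was 0.05. The 15 members that fell in WT cells were here between -0.30 and 0.14 on the log2 scale. ITGB5 was at 214, 203 and 202 CPM with DMSO and 201, 201 and 199 CPM with niraparib (log2 fold change -0.04 ± 0.05, adjusted p = 0.874). LAMC1 was at 266, 255 and 259 CPM and then at 278, 266 and 251 CPM (0.03 ± 0.05, adjusted p = 0.902). The ITGB5 libraries with niraparib lay just below those with DMSO, and the LAMC1 libraries overlapped. SDC4 came closest to the threshold, with 253, 259 and 272 CPM against 218, 221 and 195 CPM (-0.30 ± 0.06, adjusted p = 0.0687), and its niraparib libraries all lay below DMSO.

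Olaparib in PARP1 KO cells gave no call among the members, where 0.803% of genes were called (DESeq2 also called 0). At an adjusted p below 0.05, 3 members rose (ITGA6, LAMA3 and FN1, from 0.21 to 0.27), against 4.42% of all genes. A pair fell, ITGAE (-0.38 ± 0.08, adjusted p = 0.00564) and CD151 (-0.17 ± 0.05, adjusted p = 0.0407), against 3.87%. FN1 was at 38.7, 36.7 and 40.4 CPM with DMSO and at 46.8, 45.9 and 44.9 CPM with olaparib (0.25 ± 0.06, adjusted p = 0.017). Of these 5, ITGAE alone kept the threshold with each library left out. Of the 6 fits without 1 library, FN1 passed in 3, ITGA6 and LAMA3 in 1 each and CD151 in 0. The highest adjusted p was 0.161 for ITGA6 and 0.246 for LAMA3 without the second olaparib library, and 0.185 for CD151 and 0.118 for FN1 without the second DMSO library. The luminal markers moved here too, with 4 of 9 lower and a summed level of 12423 to 13412 CPM against 14481 to 15167 CPM with DMSO, and their part was not tested. FN1, ITGA6 and LAMA3 also rose with olaparib in WT cells, which had their own DMSO libraries. Between the drugs in PARP1 KO cells no member was called, against 1.07% of genes. SDC4 was lower with niraparib (-0.40 ± 0.06, adjusted p = 0.000485) where 5.73% of genes were lower, and ITGAE was higher (0.26 ± 0.08, adjusted p = 0.0478) where 4.27% were. ITGAE lost the threshold in 5 of the 6 fits without 1 library (adjusted p = 0.0879 to 0.14).

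The difference between the genotypes in the response to niraparib was tested as an interaction over all 18 libraries and 24675 genes, with a positive value where the response in PARP1 KO cells was the higher. It was above 0 at an adjusted p below 0.05 for 12 members and below 0 for 1, where 10.4% and 12.5% of all genes passed, and 17.7% and 21.7% of the genes at 1 CPM or more. The median was 0.17 for the members and 0.03 for all genes. The interaction contains the WT response, so that members chosen for a fall in WT cells lean above 0 by that choice. Those that had fallen in WT cells and did not pass the interaction test were ITGAV (0.17 ± 0.08, adjusted p = 0.143), ITGB4 (0.11 ± 0.07, adjusted p = 0.341), LAMA5 (0.87 ± 0.30, adjusted p = 0.0544) and SDC4 (0.12 ± 0.10, adjusted p = 0.425). The summed luminal markers with niraparib were 13443 to 13737 CPM in PARP1 KO cells against 14481 to 15167 CPM with DMSO, and 5 of the 9 had a positive interaction at an adjusted p below 0.05.

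**Figure D5:**
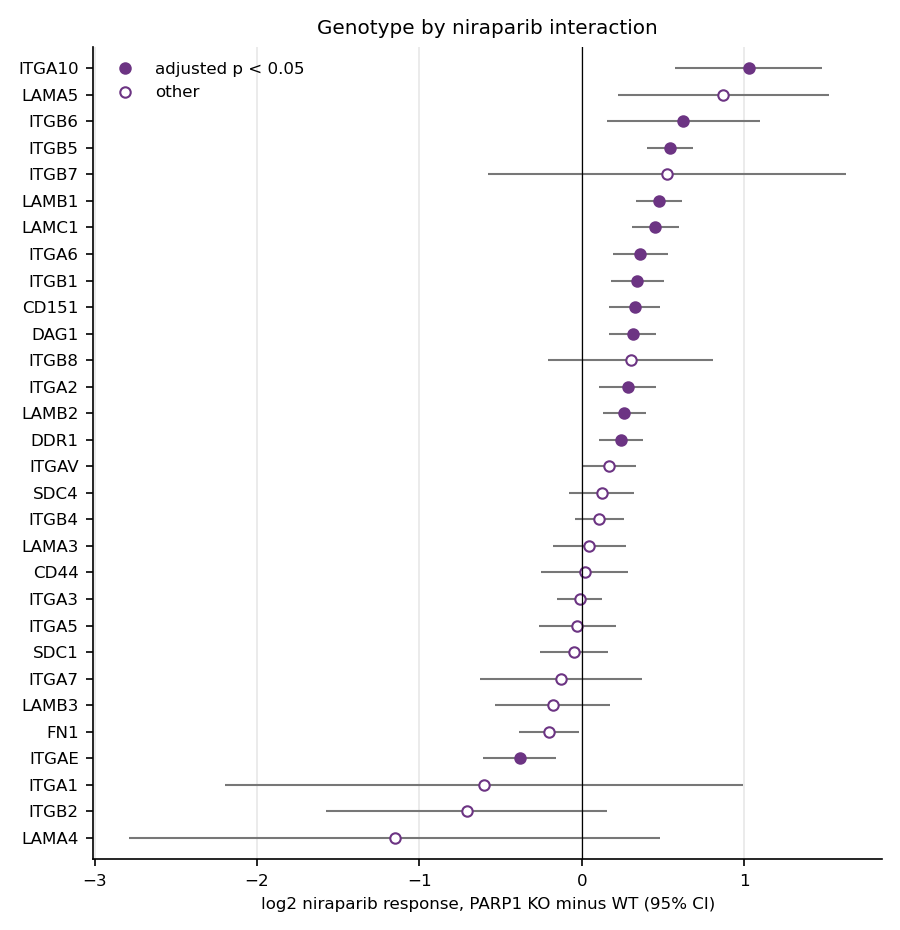
Difference between the log2 responses to niraparib, PARP1 KO minus WT, with its 95% confidence interval, for 30 members in order of size; filled points have an adjusted p below 0.05. Of the 13 filled points, 12 lie right of zero, with ITGA10 highest at 1.03, and ITGAE alone lies left.

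ITGA10 and ITGB6 were the members called in this interaction, both higher, against 3.68% of all genes. ITGA10 was at 7.37, 8.19 and 6.86 CPM with DMSO and 7.74, 7.29 and 9.47 CPM with niraparib in PARP1 KO cells, where the groups overlapped, and its interaction was 1.03 ± 0.22 (adjusted p = 0.00107). ITGB6, a chain of an epithelial integrin that activates TGF-beta, passed the test in neither genotype alone. It was at 3.47, 4.81 and 4.11 CPM with DMSO and 3.63, 3.24 and 4.54 CPM with niraparib in WT cells. In PARP1 KO cells it was at 3.75, 4.31 and 4.08 CPM with DMSO and 6.59, 5.94 and 4.61 CPM with niraparib, without overlap. The interaction of ITGB6 was 0.62 ± 0.23 (adjusted p = 0.0459), and 9 of the 12 fits without 1 library put the adjusted p above 0.05, at 0.055 to 0.159.

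Among the members of higher level the interaction was 0.54 ± 0.07 for ITGB5 (adjusted p = 1.31e-07), 0.47 ± 0.07 for LAMB1 (adjusted p = 2.18e-06), 0.45 ± 0.07 for LAMC1 (adjusted p = 6.06e-06) and 0.34 ± 0.08 for ITGB1 (adjusted p = 0.00116). ITGAE was the member with a negative value (-0.38 ± 0.11, adjusted p = 0.00954), as it rose with niraparib in WT cells and was at 14.5, 14.2 and 14.5 CPM against 15.9, 14.9 and 16.4 CPM in PARP1 KO cells. Apart from ITGB6 and ITGA2 (adjusted p = 0.0501 without the third WT DMSO library), the 13 members kept the threshold with each library left out. For olaparib no interaction passed among the members, where 2.27% of all genes passed and 0.657% were called (7 members had an unadjusted p below 0.05, and DESeq2 called 1).

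Without drug, 1 of the 31 members differed between the genotypes at the threshold. ITGA10 was called lower in PARP1 KO cells, with 7.37, 8.19 and 6.86 CPM against 15.8, 10.6 and 10.9 CPM, without overlap. Over all genes 0.0851% were called lower and 0.584% were lower at an adjusted p below 0.05. The log2 fold change was -0.73 ± 0.15 (adjusted p = 0.0173), and the adjusted p rose to 0.0852, 0.104 and 0.0898 without the first or the third PARP1 KO library or the first WT library. The WT DMSO libraries enter both this difference and the niraparib response of ITGA10.

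The rest of the adhesion pathway was counted in lists of related genes. Of 33 adaptors that link integrins to the cytoskeleton, 10 rose and 11 fell with niraparib in WT cells, beside the 29.1% that rose and 27.4% that fell among all genes at 1 CPM or more. Of these adaptors 4 were called higher and 2 lower, where 8.1% and 5.72% of all genes tested were. CSRP1, a LIM protein of actin bundles, went from 152, 173 and 167 CPM to 298, 337 and 308 CPM (log2 fold change 0.94 ± 0.05, adjusted p = 8.98e-12). ZYX, zyxin of focal adhesions, went from 21.7, 24.7 and 23.6 CPM to 42.2, 45.1 and 43.7 CPM (0.90 ± 0.06, adjusted p = 1.38e-10). The groups did not overlap in either gene, and TNS1 was called higher as well (0.65 ± 0.12). FLNA, the actin crosslinker filamin that binds beta chains, was called lower (-0.59 ± 0.05, adjusted p = 1.34e-08), as was FERMT3, the kindlin of blood cells (-0.76 ± 0.24, adjusted p = 0.0133). FERMT3 lost the threshold without the first or the third niraparib library (adjusted p = 0.0745 and 0.06). FLNA was inside the 1.5-fold limit without the third niraparib or the first DMSO library (-0.54 and -0.56), as was TNS1 without the first niraparib or the second DMSO library (0.57 and 0.58). The interaction of genotype and niraparib passed the threshold for 15 of the 33 adaptors, 8 above and 7 below 0, beside 17.7% and 21.7% of the genes at 1 CPM or more.

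Of 14 other matrix receptors, 4 rose and 7 fell with niraparib in WT cells, beside the same 29.1% and 27.4%. HMMR, a hyaluronan-binding protein of the mitotic spindle, fell most, from 196, 229 and 230 CPM to 81.5, 72.8 and 78.8 CPM (log2 fold change -1.49 ± 0.06, adjusted p = 2.45e-13). GPC6 was called lower too (-0.59 ± 0.07), and the collagen receptor DDR2 (1.0 ± 0.21) and SDC3 (0.67 ± 0.14) were called higher. GPC6 was no longer called without the second niraparib or the second DMSO library (-0.51 and -0.57), nor SDC3 without the first DMSO library (0.52). Of the 14 integrins and laminins outside the members, 7 were tested and 2 rose, where 19.9% of all genes tested rose. ITGA2B, the platelet alpha chain, was among them (1.36 ± 0.17, adjusted p = 3.56e-05). Of the 3 hemidesmosome partners, PLEC and DST were tested and both fell (-0.41 ± 0.06 and -0.24 ± 0.05).

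Of 25 matrix ligands tested, 7 rose and 8 fell, where 19.9% and 18.1% of all genes tested did. The shares were 29.1% and 27.4% among genes at 1 CPM or more, a level that several of these ligands do not reach. Of the ligands 7 were called higher and 2 lower, against 8.1% and 5.72% of all genes tested. TGFB1, which integrins release from its latent form, went from 1.33, 1.78 and 1.57 CPM to 3.48, 3.76 and 4.02 CPM (1.25 ± 0.17, adjusted p = 4.27e-06). The groups did not overlap. COL6A2 (1.06 ± 0.25), FBLN1 (0.90 ± 0.17), HAS3 (0.89 ± 0.27) and COL6A1 (0.68 ± 0.08) were called higher as well, and NPNT, a basement membrane ligand, was called lower (-0.60 ± 0.05, adjusted p = 9.43e-09). NPNT lost the call without the second niraparib or the second DMSO library (-0.55 and -0.56), and COL6A1 without the first DMSO library (0.57). With olaparib, COL6A2 (1.27 ± 0.25) and FBLN1 (0.76 ± 0.17) were called higher in WT cells and THBS1, thrombospondin, was called lower (-0.69 ± 0.05, adjusted p = 5.62e-09). From the other lists TNS1 (0.72 ± 0.12), ITGA2B (0.90 ± 0.17) and DDR2 (0.89 ± 0.22) were called higher with olaparib and FERMT3 was called lower (-1.09 ± 0.25). Between the drugs in WT cells, HMMR was called lower with niraparib than with olaparib (-1.09 ± 0.06), and CSRP1 (0.75 ± 0.05), TGFB1 (0.73 ± 0.17) and ZYX (0.60 ± 0.06) were called higher, ZYX not without the second niraparib library (0.58).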

How the data were processed

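RNA-seq libraries were made from T47D cells, 3 for each of 6 groups, with a NEBNext Ultra II kit per the labels. The authors trimmed reads with Trimmomatic, aligned them by STAR to hg38, marked duplicates with Picard and assigned the exonic reads to Ensembl genes by featureCounts 2.0.0, with the reverse-stranded and primary-alignment settings. The deposited files hold raw read counts, with the exon length of each gene, which served only for levels per kilobase. The names of the deposited files call the reads deduplicated, while the methods speak of marking duplicates and do not state their removal. Reads in exons shared by same-strand genes were left uncounted. RNA input, medium and extraction kit differ between the labels and the methods.

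Genes with over 10 summed counts were fitted by edgeR 4.0.16 (R 4.3.3) with TMM, robust dispersions, the quasi-likelihood test and Benjamini-Hochberg adjustment over all genes tested. Each genotype had its own fit of 9 libraries (22446 genes in WT, 22037 in PARP1 KO). A fit of all 18 (24675 genes) gave the interactions and the contrast of the genotypes. The biological coefficient of variation was 7.04% (WT) or 7.42% (PARP1 KO). CPM were scaled by TMM over the 18 libraries, except those of PARP1, which were taken over the total count of each library. A standard error is the absolute log2 fold change over the square root of F. Replicate libraries differed beyond sampling noise (chi-square per gene 3.13 to 19.0). The scripts were tested on simulated data.

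Groups came from the labels. Members and related lists were chosen with earlier results of these data known. The rule for naming gave in full the members called in any of 9 comparisons and the highest member of each role per kilobase, and from each related list up to 5 called genes per direction that averaged 1 CPM or more. Alternatives were RLE size factors, filterByExpr or no filter, DESeq2 1.42.0, a replicate block, all 18 libraries in 1 fit, a log2 limit of 1.5 and each library left out. Removal of each library's GC trend was added after seeing the data. Promoter windows came from RefSeq. A few genes of the related and marker lists are not named here.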

Additional observations from a re-analysis of the deposited data

Results flagged for a closer look

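The response to niraparib differed between WT and PARP1 KO cells, by the edgeR interaction test over all 18 libraries at an adjusted p below 0.05, for 13 members. The interaction, in log2 units as PARP1 KO minus WT, was 1.03 for ITGA10, 0.62 for ITGB6, 0.54 for ITGB5, 0.47 for LAMB1, 0.45 for LAMC1, 0.36 for ITGA6, 0.34 for ITGB1, 0.33 for CD151 (0.325), 0.31 for DAG1, 0.28 for ITGA2, 0.26 for LAMB2, 0.24 for DDR1 and -0.38 for ITGAE. For ITGB6 the response itself passed in neither genotype, with a log2 fold change of 0.49 in PARP1 KO cells (adjusted p = 0.321) and -0.14 in WT cells (adjusted p = 0.544). Single genes were not screened for outlying libraries, since each group has 3.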

How the results depend on the processing

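With a limit of 1.5 on the log2 scale in place of 1.5-fold, the members called were 0 for niraparib against DMSO in WT, 0 for niraparib against olaparib in WT, 0 for PARP1 KO against WT with DMSO and 0 for the genotype by niraparib interaction. DESeq2 called 1 member for niraparib against olaparib in WT, where ITGA1 had an adjusted p of 0.0608, and 1 for the genotype by olaparib interaction. At an adjusted p below 0.05 it gave 1 higher for niraparib against olaparib in WT, 1 lower for niraparib in PARP1 KO, 2 higher and 2 lower for niraparib against olaparib in PARP1 KO, 1 higher for PARP1 KO against WT and 1 higher for the olaparib interaction. Without a filter on low counts 1 member was called with olaparib in WT and 1 in the olaparib interaction, and those past the adjusted p were 1 higher and 1 lower with niraparib in PARP1 KO, 2 higher for PARP1 KO against WT, and 1 higher and 1 lower for the olaparib interaction. With all 18 libraries in 1 fit, 1 member was called with olaparib in WT and 2 were lower for niraparib against olaparib in PARP1 KO, which was also 2 with filterByExpr and 2 with the GC trend removed. The removal of the GC trend also gave 1 lower with niraparib in PARP1 KO. The cause of these shifts was not tested.

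Libraries with the same number in the labels were not shown to be paired: their deviations within a genotype correlated with a median r of -0.08. With the replicate number as a block, 5 members were higher with niraparib in WT, 1 was lower with olaparib in PARP1 KO, 0 were higher for niraparib against olaparib in PARP1 KO and 1 was called in the niraparib interaction. With the block, LAMA5 had an adjusted p of 0.0691 for niraparib in WT and ITGB6 0.0608 in the interaction.

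With each library left out in turn, the members higher with niraparib in WT ranged from 3 to 8. With olaparib in WT, those called ranged from 0 to 1, those higher from 5 to 8 and those lower from 1 to 4. For niraparib against olaparib in WT, those called ranged from 1 to 2 and those higher from 1 to 2. In PARP1 KO, those higher with olaparib ranged from 0 to 2 and those lower from 1 to 2, and those higher for niraparib against olaparib from 0 to 2. For PARP1 KO against WT, those called and those lower each ranged from 0 to 1. In the niraparib interaction, those called ranged from 1 to 2 and those lower from 1 to 2. Among single genes the sign turned where the change was near 0: ITGB1 with olaparib in WT ranged from -0.038 to 0.031, and ITGB2 for niraparib against olaparib in WT from -0.047 to 0.634. ITGB5 with niraparib in WT ranged from -0.62 to -0.53, across the 1.5-fold limit, and was called at -0.59 with RLE size factors, filterByExpr and DESeq2. The other counts of members stayed within 1.5 times of those given. Depth limits ITGA1, ITGB3, ITGB7 and LAMA4, which averaged under 1 CPM.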
